A study of Bos taurus with 40 samples.

Results

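All conceptuses made by somatic cell nuclear transfer (SCNT) were set against conceptuses produced in vitro by fertilisation (IVP), to look for expression differences that SCNT conceptuses share whatever the donor line. The 30 SCNT arrays and the 10 IVP arrays were chosen by their labelled reproduction mode and make up all 40 arrays of the series used here. SCNT conceptuses came from ear-skin fibroblasts of 3 Holstein heifers, with 10 arrays each for the lines SCNT-5538, SCNT-7711 and SCNT-0029, which the study calls SCNT High, Med and Low after their efficiency. IVP conceptuses came from the same batches of oocytes matured in vitro, fertilised with the frozen sperm of a single Holstein bull. Embryos of both kinds were co-cultured on Vero cells, transferred to recipient cows and flushed out at Day 18. The embryonic disc was removed where one was found, so that the arrays measured extra-embryonic tissue. The study found no disc in some SCNT Med and Low conceptuses. It classed some conceptuses of both kinds as delayed in elongation, and some SCNT ones as abnormal. The labels do not give the stage of each conceptus, so stage and reproduction mode cannot be told apart. Each array measured 1 conceptus, and the labels give no other treatment or genetic change. Each line is the clone of 1 cow, so a line and its donor genome cannot be told apart. All SCNT conceptuses are female, whereas IVP embryos can be of either sex and the sex of each IVP array is not given in the labels. Several blastocysts were transferred per recipient, and the labels do not say which conceptuses shared a cow, so p-values treat conceptuses as separate.

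Before implantation, the bovine conceptus elongates into a filament made of an outer trophoblast and an inner layer of endoderm. The trophoblast signals to the uterus and later builds the placenta, and the endoderm lines the yolk sac. After nuclear transfer, the oocyte has to reprogram a skin nucleus so that these lineages can form, and placental defects are a known cause of loss in cattle clones.

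Amplified RNA was labelled with 33P and hybridised to nylon membranes of bovine cDNA. Levels are the log2 of the spot signal minus the array's mean over 10184 cDNA probes, so that levels above 0 exceed the array's own average and a difference of 1 is a doubling. A probe was called when its Benjamini-Hochberg adjusted p from limma was under 0.10. Median signal over local background was 4.85 to 7.69 on the IVP arrays and 5.06 to 8.99 on the SCNT arrays, and between 7735 and 9907 cDNA spots of an array were brighter than its water spot. By the dates in the file headers, session 1 of quantification held 7 IVP and 13 SCNT arrays, session 2 held 3 IVP and 11 SCNT arrays, and session 3 held 6 SCNT arrays and no IVP array. SCNT-7711 was not in session 3. Gene names could be given to 16 probes, which a primer list of the study ties to a gene. The defining trophoblast genes fixed for the check of the tissue could not be tied to a probe, apart from PLIN2, so the tissue label was not tested beyond single genes.

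The probe of LHFPL2 was lower in SCNT than in IVP conceptuses, by 0.88 on the log2 scale, and it was the only probe of 10184 called between the 30 SCNT and the 10 IVP arrays (0.00982% of the probes). LHFPL2 belongs to a family of tetraspan membrane proteins. The study's PCR did not bear out its array difference in LHFPL2 between artificial insemination and SCNT Med, though elsewhere the study counts LHFPL2 among the genes that held up. Its primer list ties each spotted probe to a gene by name. The pairs for LHFPL2 and for EIF2S3, the gene with the next smallest p among the named genes, are shown. They were not aligned to the spotted cDNA.
LHFPL2 (BF041292), forward: ttactggcgttggtcctggat
LHFPL2 (BF041292), reverse: tgctaggagcttggttgagca
EIF2S3 (BF043574), forward: tggaacaaaaattgaccccac
EIF2S3 (BF043574), reverse: tgtgcgtacaccaagaagtcg

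The LHFPL2 level ran from -2.18 to 0.20 on the IVP arrays, with a median of -1.35. On the SCNT arrays it ran from -2.70 to -1.16, with a median of -2.07. The groups overlapped: 29 of 30 SCNT arrays lay below the IVP median, 12 lay below every IVP array and 18 lay within the IVP range. Over all probes, the median count of SCNT arrays below every IVP array was 2, and 72 probes had 15 or more. The mean was -2.06 ± 0.39 (SD, n = 30) in SCNT and -1.18 ± 0.67 (SD, n = 10) in IVP, and the difference of -0.88 had a standard error of 0.17, a 95% interval from -1.22 to -0.53 and an adjusted p of 0.0716 from limma. The size of the difference is uncertain, as the spot was dim. Its signal exceeded that of the array's water spot in 9 of 10 IVP conceptuses but in 9 of 30 SCNT conceptuses. Water itself had a mean level of -1.71 in SCNT and -1.92 in IVP. The membrane also held 154 spots without a name, and what they hold is not given. Their median level per array was -0.43 to 0.62 in IVP and -0.59 to 0.53 in SCNT. That is above the median LHFPL2 level of either group and above LHFPL2 on every SCNT array, so detection in IVP rests on the water spot alone. The LHFPL2 spot stood above its local background on every array, by 2.97 to 7.06 times in SCNT and by 3.13 to 10.7 times in IVP. That ratio was not set against the ratio of the water spot, so it cannot show that the signal came from the gene. The LHFPL2 spot was never marked as poor or empty. The 8 spots around it in its block differed between SCNT and IVP by -0.35 to 0.19, 4 of them higher and 4 lower, each with an unadjusted p over 0.05. The local background of the LHFPL2 spot, relative to the array's median background, was itself lower in SCNT by 0.24 (log2 means -1.12 and -0.88, two-sided permutation p = 0.0235). Signals were not background-subtracted, and over its local background the spot differed by -0.65 rather than -0.88 on the log2 scale. With normexp background correction the difference was -0.35, and LHFPL2 was no longer called (adjusted p = 0.9999 from limma). The part of the background in the LHFPL2 difference was not tested beyond that correction.

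Line by line, LHFPL2 differed from IVP by -0.64 in SCNT-5538, by -0.99 in SCNT-7711 and by -1.003 in SCNT-0029. The medians of the lines were -1.86, -2.23 and -2.21, and the highest arrays were at -1.16, -1.44 and -1.44. In session 1 it differed by -0.81 (adjusted p = 0.999 from limma) and in session 2, on other arrays, by -1.19 (adjusted p = 0.559). Session 2 held only 3 IVP arrays, which ran from -1.46 to 0.20 with a median of -1.39. The arrays of both sessions also chose LHFPL2, so the shared sign is no independent support. With the session as a block the difference was -0.94 (adjusted p = 0.0458 from limma). The call did not hold with a variance per group (adjusted p = 0.403), without the arrays of session 3 (adjusted p = 0.112), or with each level floored at the water spot, which moved the difference to -0.46 (adjusted p = 0.670). Leaving out the 3 IVP arrays of session 2 and the SCNT array BC30, which stand apart on other probes, gave -0.75 (adjusted p = 0.644).

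Leaving out 1 array at a time, LHFPL2 had the smallest p of all probes in 40 of 40 fits and stayed called in 19 of them, with differences from -0.99 to -0.72. The call was lost without the IVP array BF190 (adjusted p = 0.498), BF153 (0.490), BF178 (0.262), BF169 (0.203), BF170 (0.132) or BF188 (0.106). It was also lost, with adjusted p-values of 0.101 to 0.111 from limma, without any 1 of the 15 SCNT arrays BC107, BC122, BC158, BC160, BC183, BC192, BC202, BC245, BC249, BC254, BC255, BC256, BC268, BC271 and BCSD80. Without SCNT-7711 the difference was -0.82 (adjusted p = 0.235), and without SCNT-0029 it was -0.82 (adjusted p = 0.844).

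**Figure D1:**
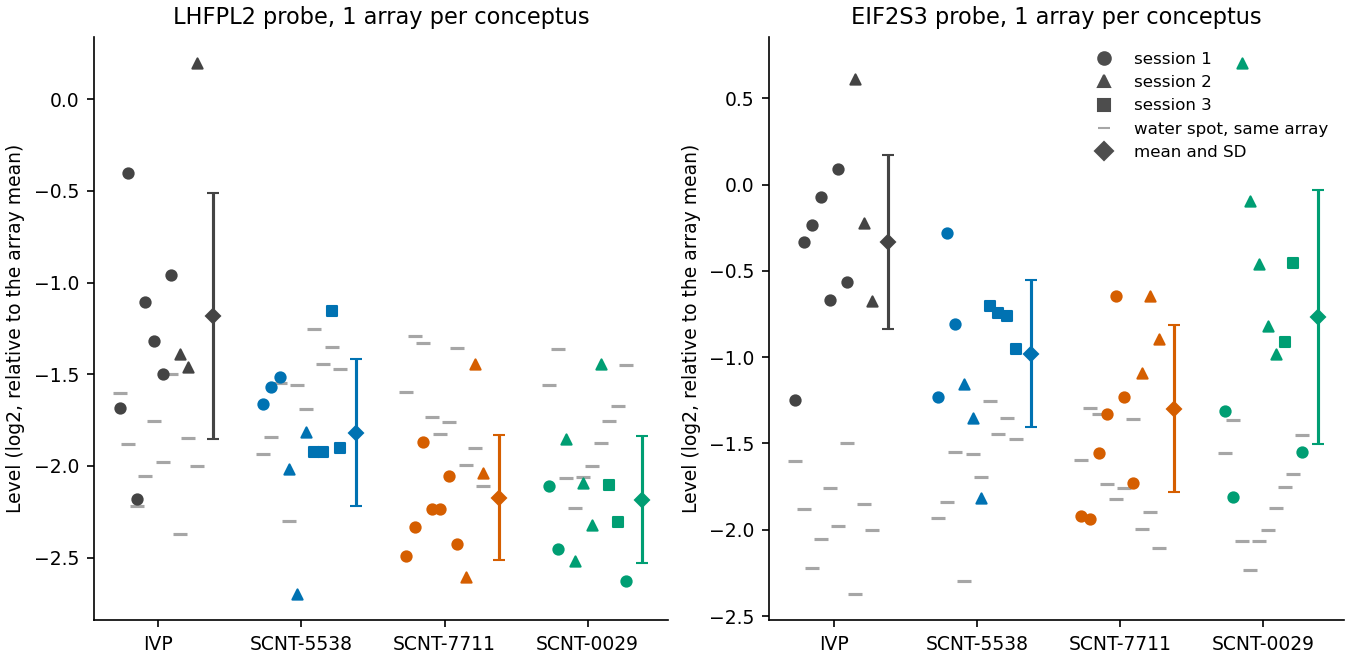
Levels of the LHFPL2 and EIF2S3 probes (log2, relative to the array mean) in the 10 conceptuses of each group; symbols give the quantification session, grey dashes the water spot of the same array, and diamonds with bars the mean and SD. Most SCNT points of LHFPL2 lie at or below the water dashes, and 9 of 10 IVP points lie above them.

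Over the whole array, few probes set SCNT apart from IVP. Without adjustment, 432 probes had a p under 0.05 (4.24%), 201 of them higher in SCNT (1.97%) and 231 lower (2.27%). After LHFPL2, the adjusted p of every probe was at least 0.993. The probes with the next smallest p that were lower in SCNT were AW462002 (-0.74, unadjusted p = 0.000325) and AW464603 (-1.16, unadjusted p = 0.00152). The first among those higher in SCNT were BM362819 (0.41, unadjusted p = 0.00186) and AW462009 (0.64, unadjusted p = 0.00215). None of these 4 passed, and the files give no gene for them. The largest difference of any probe was 1.26 in size. In this fit, without background subtraction or a session term, the 95% interval had a median half-width of 0.35. It lay within 1 of 0 on the log2 scale for 9779 probes (96% of those tested). These intervals bound differences of the signal as fitted, and differences of dim probes at the level of the water spot cannot be measured.

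Changes common to the lines were looked for in a fit of the 4 groups, in which each line is set against the same 10 IVP arrays, so that the comparisons of the lines are not independent of each other. The same sign in all lines together with an unadjusted p under 0.05 in each was found for 14 probes (0.137%), 3 higher in SCNT (0.0295%) and 11 lower (0.108%). Only LHFPL2 among them was called in the pooled comparison, and the other 13 had adjusted p-values of at least 0.993. In each line alone, 0 probes were called against IVP by limma in this fit, while without adjustment the p was under 0.05 for 881 probes of SCNT-5538 (8.65%), 302 of SCNT-7711 (2.97%) and 320 of SCNT-0029 (3.14%). The fit has no session term. Session 3, without any IVP array, held 4 arrays of SCNT-5538, 2 of SCNT-0029 and 0 of SCNT-7711. Line and session cannot be told apart in these counts. Of all probes, 4992 (49%) had one sign in the 3 lines.

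Of the probes lower in all lines, AW462002 came next to LHFPL2. Its level ran from -1.37 to 0.55 in IVP (median -0.47) and from -2.17 to 0.16 in SCNT (median -1.09). Against IVP it differed by -0.81 in SCNT-5538, by -0.79 in SCNT-7711 and by -0.63 in SCNT-0029. The groups overlapped, with 8 SCNT arrays below every IVP array, and the spot was brighter than water on 24 of 30 SCNT arrays. AW462009 led those higher in all lines. It ran from -0.06 to 1.38 in IVP (median 0.87) and from 0.07 to 2.21 in SCNT (median 1.51), and differed by 0.62, 0.68 and 0.61 in the lines in the same order. For this probe, 17 of 30 SCNT arrays lay above every IVP array, and its spot was brighter than water on all 40 arrays. The pooled differences of the 14 probes ran from -1.03 to -0.43 for the lower ones and from 0.53 to 0.71 for the higher ones. The most that any of them had was 18 SCNT arrays below, or 17 above, every IVP array, and over all probes of the array the most was 22 below and 20 above. The medians over all probes were 2 below and 3 above. In 72 probes 15 or more SCNT arrays lay below every IVP array, and in 94 probes 15 or more lay above. All 14 had one sign in sessions 1 and 2, whose arrays also chose them, and 2 had an unadjusted p under 0.05 in each session. As the pooled arrays chose them, their p-values describe these arrays and are no independent support.

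**Figure D2:**
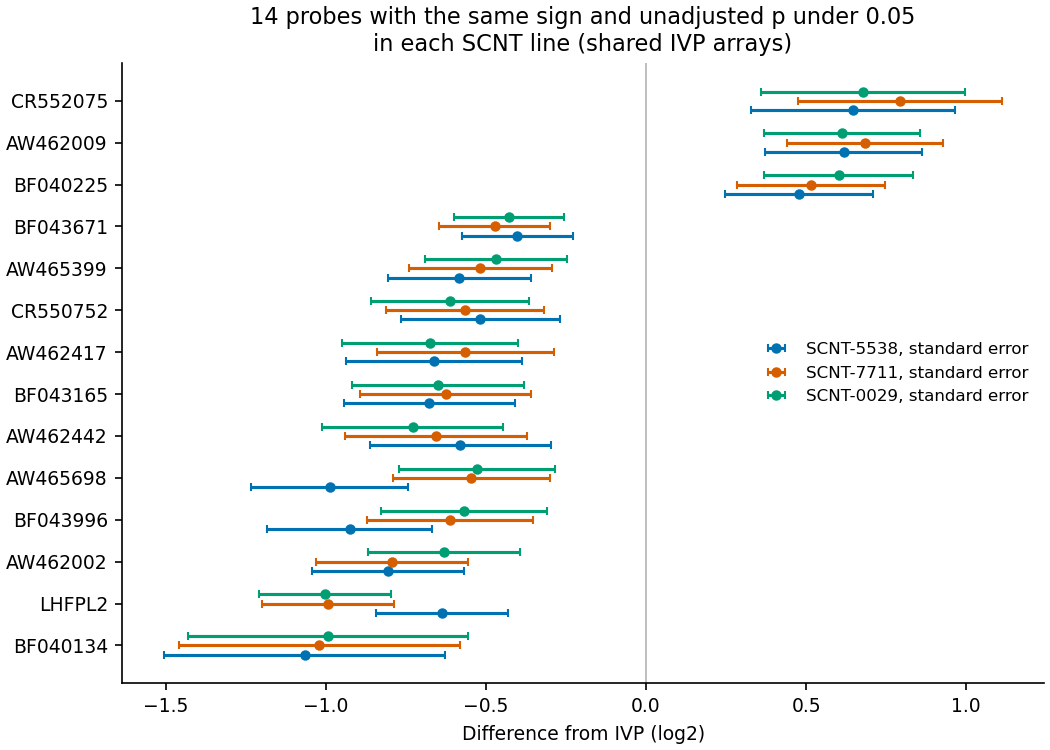
Difference from IVP (log2) of the 14 probes with one sign and an unadjusted p under 0.05 in each SCNT line; points are the 3 lines and bars their standard errors. The same 10 IVP arrays enter every point; 11 probes lie left of 0 and 3 to the right, and only LHFPL2 was called over all probes.

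Of the 16 named genes, 1 was called (LHFPL2, lower in SCNT), and 4 had an unadjusted p under 0.05 (25% of them, against 4.24% of all probes), 1 higher and 3 lower. The study chose these genes on arrays of this series, so their share is no independent evidence. Their median difference was 0.04, against 0.01 over all probes. EIF2S3, the gamma subunit of the translation initiation factor eIF2 and an X-linked gene, ran from -1.25 to 0.61 in IVP (median -0.28) and from -1.94 to 0.70 in SCNT (median -0.97). In SCNT 27 of 30 arrays lay below the IVP median and 10 below every IVP array, against a median of 2 over all probes. The difference was -0.68 (standard error 0.20, unadjusted p = 0.0016, adjusted p = 0.993 from limma), with -0.65 in SCNT-5538, -0.97 in SCNT-7711 and -0.44 in SCNT-0029. With the session as a block it was -0.83 (unadjusted p = 0.000119, adjusted p = 0.607). Its spot was brighter than water on 10 of 10 IVP and 23 of 30 SCNT arrays. All SCNT conceptuses are female, and the study lists 4 females for IVP without saying in the labels which arrays they are. For this X-linked gene the sex of the IVP conceptuses and the reproduction mode therefore cannot be told apart here.

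ALG5, an enzyme that supplies glucose for N-glycan assembly, differed by -0.48 (standard error 0.17, unadjusted p = 0.00601, adjusted p = 0.993 from limma). Its level was 0.44 to 1.32 in IVP (median 0.99) and -0.70 to 1.53 in SCNT (median 0.54). Below every IVP array lay 12 SCNT arrays, against a median of 2 over all probes. ASF1A, a chaperone of histones H3 and H4, differed by 0.65 (standard error 0.25, unadjusted p = 0.0118, adjusted p = 0.993). It ran from 1.21 to 2.78 in IVP (median 2.16) and from 1.25 to 4.45 in SCNT (median 2.72). Above every IVP array lay 13 SCNT arrays, against a median of 3 over all probes. WNT5B, a secreted Wnt ligand, differed by 0.65 with a wider interval, from -0.08 to 1.39, and its SCNT arrays ran from -2.12 to 4.05 against 0.45 to 2.18 in IVP. These 3 genes, LHFPL2, EIF2S3 and EED made up the 6 of the 16 whose difference had one sign in all lines.

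The chromatin and DNA repair list held 16 genes, of which 5 could be tied to a probe. None of the 5 was called, 3 were higher and 2 lower, and their median difference was 0.05. Besides ASF1A, EED, a subunit of Polycomb complex PRC2, differed by -0.39 (95% interval -1.07 to 0.30), with -0.94 in SCNT-5538, -0.07 in SCNT-7711 and -0.15 in SCNT-0029. DFFA, the inhibitor of the caspase-activated DNase, differed by -0.31, with 8 of 10 IVP and 18 of 30 SCNT spots brighter than water. MSH3, a mismatch repair protein, and BIN3 differed by 0.10 and 0.05. Of the microvilli list of 7 genes, 2 were measured: LHFPL2, and MYO6, a myosin motor, which differed by -0.11 (95% interval -0.46 to 0.24).

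For the cell types of the tissue, FN1 and APLP2 stood for endoderm (2 of 21 genes of that list) and PLIN2, the coat protein of lipid droplets, for trophoblast (1 of 31). FN1, an extracellular matrix protein, differed by -0.17 (95% interval -0.84 to 0.50; 0.01 with the session as a block), PLIN2 by 0.04 (-0.41 to 0.49) and APLP2 by 0.06 (-0.34 to 0.46). None was called. The epiblast was dissected away with the disc, where a disc was found. POU5F1, a factor of the epiblast, had a mean level of -0.20 in SCNT and -0.23 in IVP (difference 0.03, two-sided permutation p = 0.861, also 0.861 adjusted over 6 controls). Its spot was still brighter than water on 30 of 30 SCNT and 9 of 10 IVP arrays, and the source of that signal was not tested. No gene of the lists for mesoderm, for uterus and blood, for imprinted genes, for stress or for translation and mitochondria could be tied to a probe. In whole tissue, fewer cells of a type and less RNA per cell cannot be told apart.

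Other genes had lines on both sides of IVP. C5orf13, PGAM5, MSH3 and BIN3 were higher than IVP in SCNT-5538 (0.39 to 0.79) and in SCNT-7711 (0.31 to 0.70) and lower in SCNT-0029 (-1.01 to -0.56), so that their pooled differences were 0.05 to 0.22. For C5orf13 the SCNT minus IVP difference was -0.42 in session 1 and 2.06 in session 2, with an IVP mean of 3.29 in session 1 and 0.80 in session 2, but the difference between sessions did not pass for any of the 16 genes (smallest adjusted p = 0.651 from limma, for C5orf13). FN1 differed from IVP by 0.69 in SCNT-7711 but by -0.56 in SCNT-5538 and -0.63 in SCNT-0029. CCNE1, cyclin E1, differed by 0.53 in SCNT-0029 and by -0.36 in SCNT-5538. Tested among the 30 SCNT arrays, none of the 16 genes differed between lines after adjustment over all probes (smallest adjusted p = 0.361, for CCNE1).

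**Figure D3:**
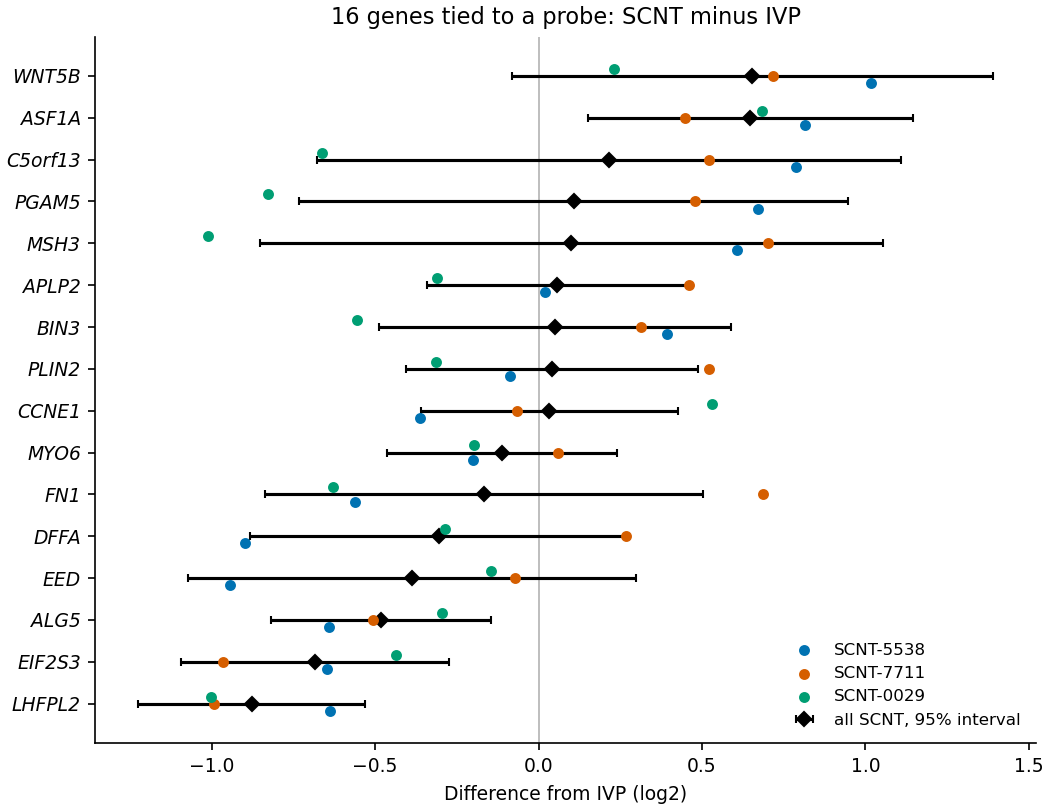
Difference from IVP (log2) of the 16 named genes; black diamonds are all 30 SCNT arrays with the 95% interval and coloured points the 3 lines. The interval lies off 0 for LHFPL2, EIF2S3, ALG5 and ASF1A, and the lines lie on both sides of 0 for 10 genes.

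Among the 3 lines, 1 probe of 10184 was called (0.00982%), BF041564, which no file names. Its level was 0.84 ± 0.43 in SCNT-5538, 2.33 ± 0.63 in SCNT-7711 and 1.72 ± 0.51 in SCNT-0029 (SD, n = 10 each), and 1.55 ± 0.68 in IVP (n = 10). The adjusted p among lines was 0.0142 from limma, and 510 probes (5.01%) had an unadjusted p under 0.05. The SCNT arrays of session 3, 4 of SCNT-5538 and 2 of SCNT-0029, ran from 0.15 to 1.05, and without them 0 probes were called (289 at an unadjusted p under 0.05). With the session as a block 0 probes were called (493 at an unadjusted p under 0.05, smallest adjusted p 0.630). Pooled against IVP, this probe differed by 0.09, as the lines lay on both sides of IVP.

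Many probes differed between sessions of quantification. With SCNT in the model, 2091 probes (20.5%) differed between the 3 sessions, and 1375 (13.5%) between sessions 1 and 2. The sessions held different conceptuses and unequal numbers of each line (7, 3 and 0 arrays of SCNT-7711 in sessions 1, 2 and 3), so session, line and conceptus cannot be told apart in these counts. With the session as a block, SCNT and IVP still differed in 1 probe (0.00982%), LHFPL2, and 372 probes (3.65%) had an unadjusted p under 0.05. Sessions 1 and 2 hold different arrays, so each gives its own SCNT-IVP difference. Across the 10184 probes, which share the arrays of each session and are not independent, the differences of the sessions had a Pearson r of -0.036 and one sign in 54.1% of probes. Of the 405 probes with an unadjusted p under 0.05 in session 1, 223 (55.1%) had the same sign in session 2, and of the 351 such probes of session 2, 126 (35.9%) had the same sign in session 1. At an unadjusted p under 0.05 in both sessions there were 11 probes, 3 with one sign.

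**Figure D4:**
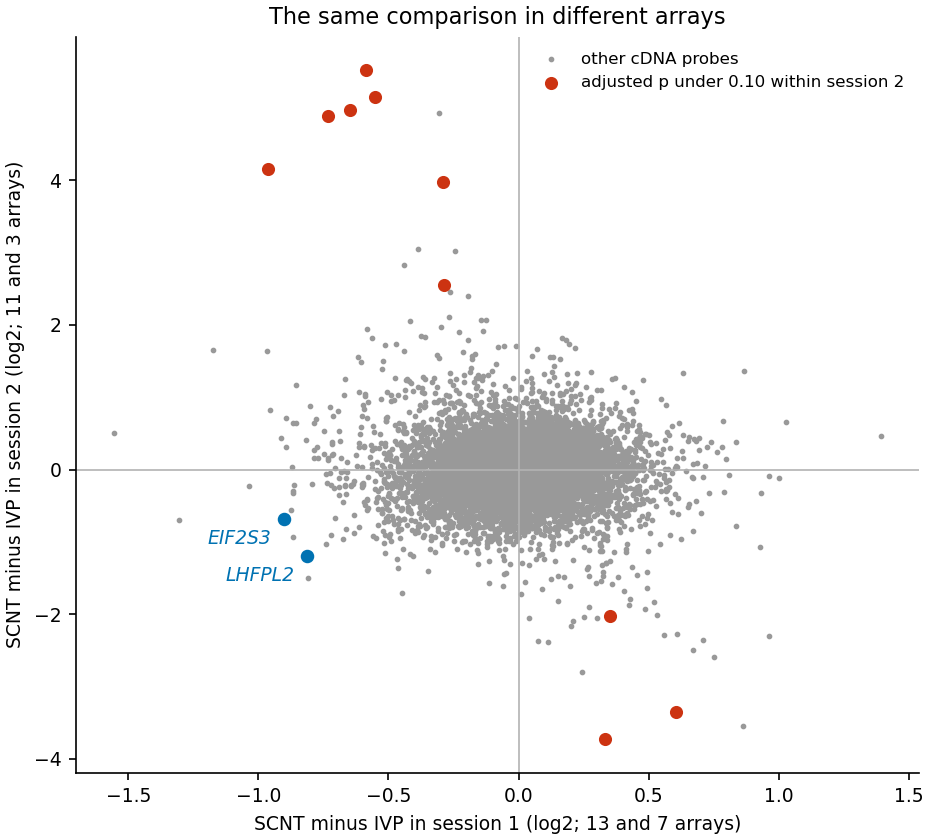
Each point is 1 cDNA probe, with its SCNT minus IVP difference (log2) in session 1 on the x axis and in session 2 on the y axis. LHFPL2 and EIF2S3 lie below 0 on both axes, and the 10 probes called within session 2 (red) have the opposite sign in session 1.

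Within session 1, 0 probes were called between SCNT and IVP by limma (405 at an unadjusted p under 0.05). Within session 2, 10 probes were called, 7 higher in SCNT and 3 lower, and all 10 had the opposite sign in session 1. The difference between SCNT and IVP itself differed between the sessions for 42 probes (0.412%, interaction in limma over the arrays of sessions 1 and 2), and for 75 without the array BC30. AW461912, a very bright spot, lay between 6.51 and 7.63 on the 7 IVP arrays of session 1. On the 3 IVP arrays of session 2 it lay at 1.24 to 2.40. SCNT arrays had medians of 6.71 in session 1 and 7.23 in session 2, and among them BC30 was the lowest, at 1.88. For this probe the 3 IVP conceptuses of session 2 lay below every other array except BC30.

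AW465987 showed the same pattern. It lay at 3.98 to 5.04 on the IVP arrays of session 1 and at -1.30 to -0.65 on those of session 2. BC30 was at -0.70, and the other 29 SCNT arrays ran from 1.87 to 5.41. Other probes were the reverse. AW466145 lay at -1.17 to -0.05 on the IVP arrays of session 1 and at 1.92 to 3.52 on those of session 2, with SCNT medians of -0.73 and -1.01. BF039937 moved likewise, from a mean of -1.19 to one of 2.35 in IVP, with -0.86 and -1.38 in SCNT. These 4 probes differed between the sessions in IVP (adjusted p 5.9e-05 to 0.0161 from limma), whereas in SCNT the adjusted p of session 2 against session 1 was 0.332 to 0.88. The 4 were picked from probes called in these same arrays, so these p-values describe the arrays and are no independent support. Among IVP conceptuses the sessions differed in 49 probes (0.481%), and among SCNT conceptuses in 373 (3.66%), but without BC30 in 128 and 63 probes, so that 1 array decided which group had more. For these probes the session and the particular conceptuses cannot be told apart within IVP, as only 3 IVP arrays were quantified in session 2.

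**Figure D5:**
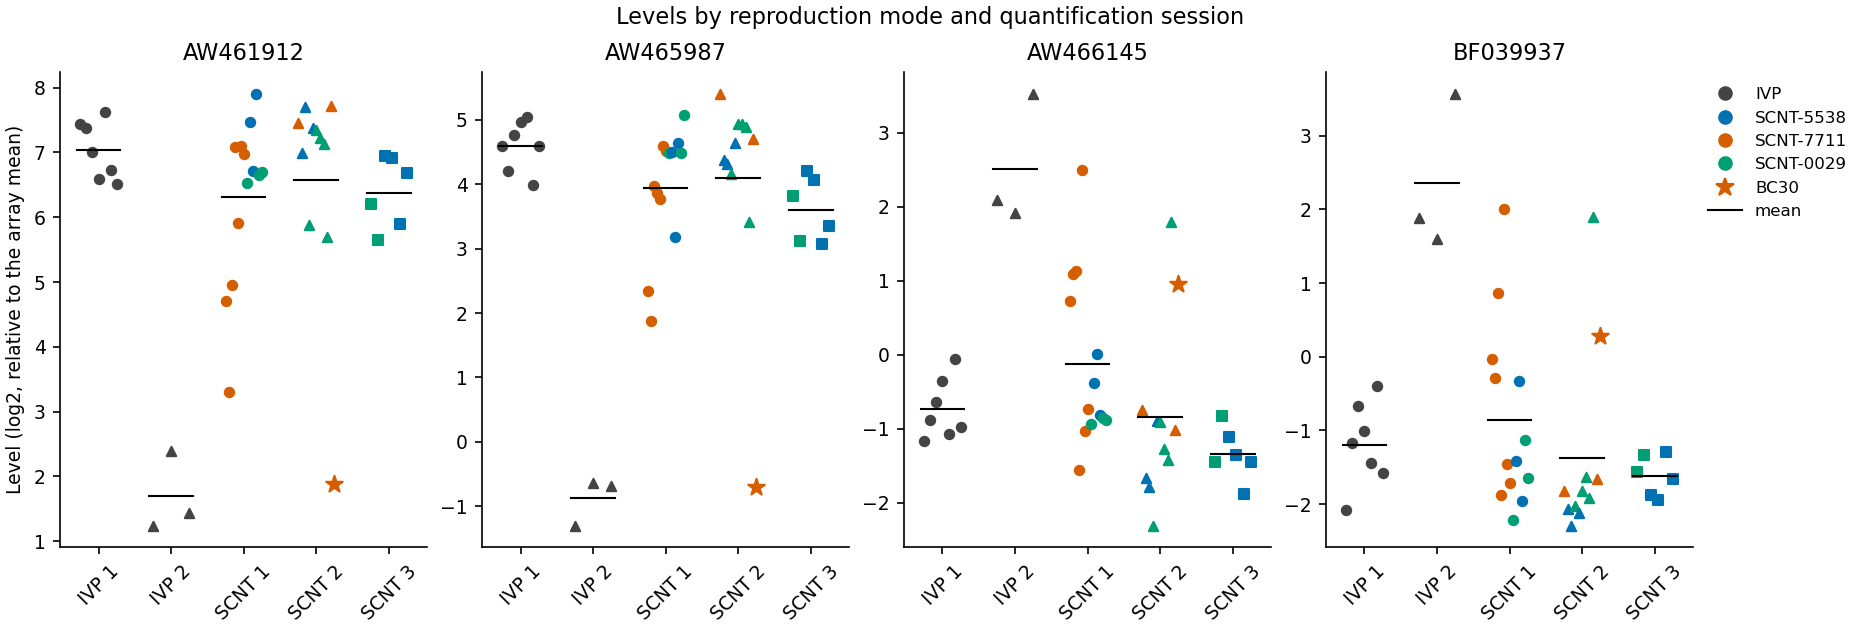
Levels (log2, relative to the array mean) of 4 probes whose SCNT-IVP difference differs between sessions, by reproduction mode and session number; black lines are means and the star is SCNT array BC30. In AW461912 and AW465987 the 3 IVP arrays of session 2 and BC30 lie far below the other arrays, and in AW466145 and BF039937 the same 3 IVP arrays lie high.

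Over all probes, SCNT conceptuses did not lie detectably further from IVP than relabelled arrays did. The root mean square distance between the SCNT and IVP means over all probes was 0.202 on the log2 scale, and permuted labels gave a median of 0.199 (one-sided permutation test with 100000 resamples, p = 0.449). With labels permuted within sessions p was 0.570. As a description, groups of 10 arrays lay 0.223 to 0.290 apart when a line was set against IVP and 0.231 to 0.274 apart when lines were set against each other.

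SCNT conceptuses did not vary detectably more among themselves than IVP conceptuses. The deviation of an array from the others of its group was 0.557 ± 0.160 (SD, n = 30) in SCNT, taken within lines, and 0.508 ± 0.133 (SD, n = 10) in IVP. The difference of 0.049 had a two-sided permutation p of 0.407, and of 0.297 with labels permuted within sessions. In session 1 the mean was 0.524 in SCNT and 0.449 in IVP, and in session 2 it was 0.661 and 0.647. The SCNT arrays of session 3, which held no IVP array, had a mean of 0.438. BC30 (1.01) and BC250 (1.08) were the most deviant SCNT arrays, and without them the difference was 0.0070 (permutation p = 0.862). By probe, 0 of 10184 differed in spread (0%, limma on absolute deviations, smallest adjusted p 0.998, 254 probes or 2.49% at an unadjusted p under 0.05). Of these 254, 172 had the larger deviation in SCNT and 82 the smaller. With the log2 of the deviations, a scale chosen after the data were examined, 0 were called as well. On that scale 529 probes had an unadjusted p under 0.05, 420 with the larger deviation in SCNT and 109 with the smaller. Of all probes, 66.0% had the larger mean deviation in SCNT.

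Of the 6 controls on the membrane that were tested, none passed after adjustment over the 6 with sessions pooled, but actin and water passed with labels permuted within sessions (adjusted p = 0.0499 for both), and both were higher in SCNT. For actin, the mean of its 10 spots ran from 2.28 to 2.79 in IVP (median 2.62) and from 2.10 to 3.69 in SCNT (median 2.90), and 20 of 30 SCNT arrays lay above every IVP array. Over the cDNA probes the median of this count was 3 and the most was 20. Each of those probes is a single spot, so their counts are not directly comparable with that of a mean of 10 spots. The actin means differed by 0.28 (two-sided permutation p = 0.0212, adjusted p = 0.106, and p = 0.0126 within sessions). The mean of the 10 GAPDH spots was 3.05 in SCNT and 2.94 in IVP (difference 0.11, permutation p = 0.590, adjusted p = 0.796). Water and Cot-1 DNA, which carry no single gene, were higher in SCNT by 0.21 and 0.22 (permutation p = 0.0532 and 0.0444, adjusted p = 0.106 for both), and within sessions the p was 0.0166 for water and 0.0735 for Cot-1 (adjusted p = 0.147). The LHFPL2 difference and those of water and Cot-1 had opposite signs.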

How the data were processed

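Per the labels and the study's methods, the authors hybridised the RNA of 1 conceptus per membrane and quantified each image with Imagene. The deposited intensity values are the mean signal and local background of each spot, without background subtraction, and the deposited marks of empty or poor spots were used only in an alternative. The authors' deposited log2 table differed from array to array with a slope of 1.00 against the values computed here, with column medians of -0.157 to 0.0598. Its probes were centred on a set that is not stated, and it served as an alternative. Arrays were grouped by their labels.

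Here log2 signals of 10184 cDNA probes were centred on each array's mean and fitted with limma 3.58.1 in R 4.3.3 (Benjamini-Hochberg over all probes, threshold 0.10). SMVar, named in the methods, was not run, and a moderated test with a variance per group was an alternative. The fits were tested on simulated data. Single values had permutation tests with 100000 resamples (numpy 2.4.6, scipy 1.17.1). Named were the 16 genes of the study's primer list and the probes with the smallest p in each comparison, of which few are printed where no gene is known. The interaction with session, the water floor and the removal of single arrays were added after seeing the data. The members and gene lists were chosen with earlier results of these data known. The number of arrays limits the precision.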

Additional observations from a re-analysis of the deposited data

Results flagged for a closer look

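Of 88 groups of 10 arrays examined, 13 had 1 array far from the other 9, and chance alone flags about 1 in 20 such groups. Among the SCNT lines these were FN1 in SCNT-5538 (BC245 at -1.29, next 0.42), PLIN2 in SCNT-7711 (BC192 at 1.43, next 0.27), DFFA in SCNT-7711 (BC122 at 0.73, next -0.84), EED in SCNT-7711 (BC192 at -0.19, next 1.82) and MSH3 in SCNT-0029 (BC256 at -0.96, next 0.70). GAPDH was highest in BC245 of SCNT-5538 (4.38, next 3.46) and in BC256 of SCNT-0029 (4.66, next 3.51). Among the IVP arrays, DFFA was highest in BF153 (0.47, next -0.97), EED lowest in BF190 (-0.41, next 2.10) and POU5F1 lowest in BF152 (-1.93, next -0.59). The deviation from the other arrays of the group was largest in BF188 of IVP (0.858, next 0.578), BC30 of SCNT-7711 (1.01, next 0.644) and BC250 of SCNT-0029 (1.08, next 0.746).

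The probe BF041564 differed among the 3 SCNT lines (adjusted p = 0.0142 from limma), but not with the session as a block. The SCNT minus IVP difference differed between sessions 1 and 2 for 42 probes. The causes were not tested.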

How the results depend on the processing

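The count of 1 probe between all SCNT and IVP arrays became 0 with normexp background correction, without the dimmest 25% of probes (which include LHFPL2), without the arrays of session 3, within session 1, with a variance per group, without SCNT-7711, without SCNT-0029 and at an adjusted p under 0.05. It also became 0 with levels floored at the water spot and without the 3 IVP arrays of session 2 and BC30, both chosen after seeing the data. It became 10 within session 2 and 3 with array weights, and was 0 to 1 with 1 array left out. The LHFPL2 difference of -0.88 kept its direction in every alternative run. It was -0.35 with normexp (adjusted p = 1.00), -0.92 without session 3 (0.112), -0.81 within session 1 (0.999), -1.19 within session 2 (0.559), -0.88 with a variance per group (0.403), -0.82 without SCNT-7711 (0.235), -0.82 without SCNT-0029 (0.844), -0.46 with the water floor (0.670), -0.75 without the 3 IVP arrays of session 2 and BC30 (0.644), and -0.99 to -0.72 with 1 array left out. It stayed called with quantile normalization, median centring, the authors' log2 values, the session as a block and SCNT line as a random block (consensus correlation -0.0254). With the random block the standard error was 0.169, against 0.172 in the main fit. That setting was therefore no stricter, and it did not take the lines as replicates.

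The probe called in common to the lines (1) became 0 with normexp, without the dimmest 25% of probes, without session 3 and when each line had to pass on its own, and 3 with array weights. The 14 probes with one sign and an unadjusted p under 0.05 in each line became 38 with array weights, and 11 to 16 otherwise. Of the 14, 5 were among the 11 found without session 3 and 6 among the 13 with the session as a block. The probe called among lines (1) became 0 without session 3 and 0 with the session as a block, and 20 with array weights. The 42 probes of the interaction became 75 without BC30. Actin and water, not called with sessions pooled, were called with labels permuted within sessions, as adjusted after seeing the data. Of the 16 genes, LHFPL2, EIF2S3, ALG5, WNT5B, ASF1A and EED kept their direction in all settings run, and the other 10, none of them called, turned in at least 1. FN1 turned with the session as a block (0.0064), within session 1 and without SCNT-5538 or SCNT-0029. CCNE1 turned with quantile normalization (-0.0019), within session 2, without SCNT-0029 and without BC30 and BC250. C5orf13 (-0.057), PGAM5 (-0.065), BIN3 (-0.070) and MSH3 (-0.18) turned with array weights, and also within session 1, without SCNT-5538, and without the 3 IVP arrays of session 2 and BC30. PGAM5, BIN3 and MSH3 turned without SCNT-7711 too. MYO6 and DFFA turned within session 2, and PLIN2 and APLP2 within session 2 and without SCNT-7711. The cause of these changes was not tested. The distance and the spread between groups kept their side of the threshold in the 7 and 9 alternatives run. No paired analysis was possible because replicate numbers only follow the order of accessions. At the level of the water spot, differences of dim probes cannot be measured.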
